A study of Mus musculus with 8 samples.

Results

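The genes described here are 34 genes of lymphocytes and of the lymph node, taken by symbol from a fixed list out of 17264 genes in the deposited tables. They comprise 15 T lymphocyte genes, 14 B lymphocyte genes, 2 genes of both lineages and 3 chemokines of lymph node stroma, and all 34 were found. The study asked how loss of Ythdf1, a cytoplasmic protein that binds m6A-marked mRNA, changes the mRNA levels and the translation of beige fat. Inguinal white adipose tissue (iWAT) was taken from cold-exposed male C57BL/6 mice aged 9 weeks. Y1cKO mice carried Ythdf1 flox/flox with exon removal by Adipoq-Cre, which is driven in adipocytes and not in lymphocytes, and Y1CTL mice were Ythdf1 flox/flox without Cre. Each genotype had 2 RNA-seq and 2 Ribo-seq libraries, and the labels state that each lysed tissue was divided between both assays.

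Lymphocytes recirculate through lymph nodes, where T and B lymphocytes settle in separate zones. Stromal cells of the T cell zone secrete Ccl19 and Ccl21, which are read by the receptor Ccr7, and stromal cells of the follicles secrete Cxcl13, which is read by the receptor Cxcr5 of B lymphocytes. The inguinal fat pad of the mouse surrounds the inguinal lymph node, so that a piece of iWAT can hold lymphoid tissue as well as fat. In libraries of whole tissue, fewer cells of a type and less RNA per cell cannot be told apart.

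Most members shared 1 pattern over the 8 libraries. As a group they were well covered in all 4 Ribo-seq libraries, with a median over the 34 genes of 22.1 to 29.1 RPKM (reads scaled to library depth and to the length of the gene, that is the coding length in Ribo-seq and the transcript length in RNA-seq). In RNA-seq they were high in 1 library alone, Y1CTL replicate 2, with a median of 12.03 RPKM, against 0 to 0.215 RPKM in the other 3 libraries. T lymphocyte, B lymphocyte and stromal genes did this together. The clearest exceptions were Kcna3, with only 8 to 24 reads in a Ribo-seq library, and Cd247, which reached only 0.886 RPKM in Y1CTL RNA-seq replicate 2. No member passed the test between Y1cKO and Y1CTL in either assay.

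**Figure D1:**
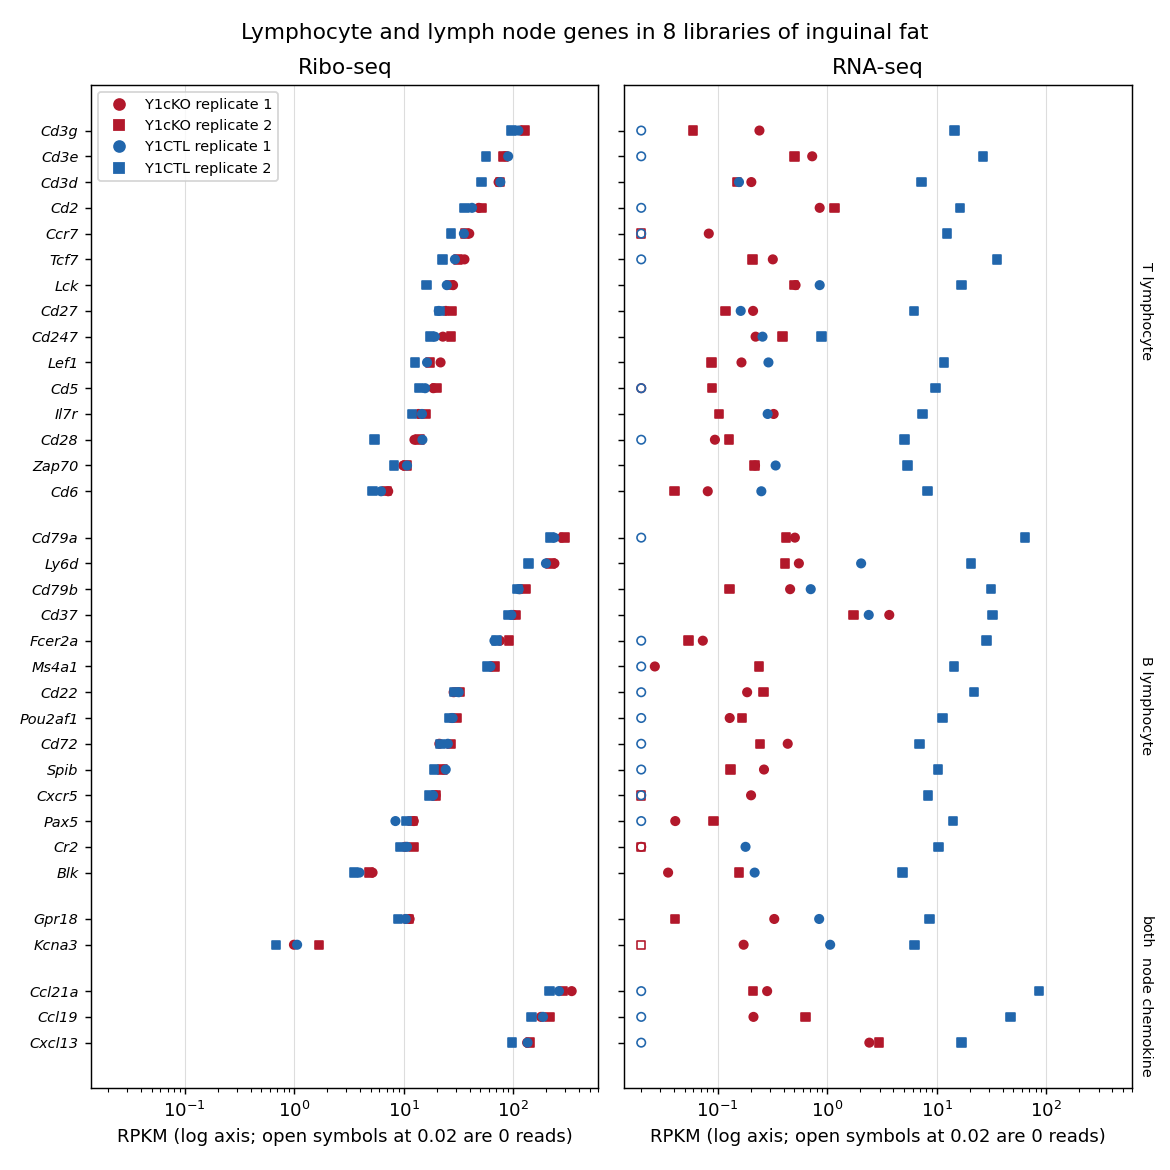
Level of each of the 34 genes in the 4 Ribo-seq libraries (left) and the 4 RNA-seq libraries (right), in RPKM on a log axis, 1 point per library, with open symbols at the left edge for 0 reads. The Ribo-seq points of a gene lie close together for both genotypes, while in RNA-seq the Y1CTL replicate 2 point is the highest for 34 of 34 genes. The share of all genes with that pattern was not counted.

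For the series as a whole, RNA-seq libraries held 12211351 and 16429015 reads in Y1cKO and 3958284 and 4963613 reads in Y1CTL, and Ribo-seq libraries 7364523 to 11862838 reads. Ythdf1 itself had 7.17 and 7.98 RPKM in Y1cKO and 8.01 and 11.5 RPKM in Y1CTL by RNA-seq, and 12.7 and 15.7 RPKM in Y1cKO and 17.3 and 16.0 RPKM in Y1CTL by Ribo-seq. Adipocyte markers were high in every library, with a median over 15 genes of 1102 to 1238 RPKM in Ribo-seq and 265 to 597 RPKM in RNA-seq. Apart from the lymphoid genes in Y1CTL replicate 2, skeletal muscle genes stood out in Y1cKO RNA-seq replicate 1, with a median of 22.1 RPKM against at most 0.428 RPKM in any other library. The sources used here do not state that replicates came from separate animals, and p-values here reflect only how far the libraries of a group differ, which may be technical.

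Promoter sequences were available for 25 of the 34 genes (RefSeq, build GRCm38.p6), and none is shown for Blk, Ccr7, Cd2, Cd28, Cd6, Cd79b, Cxcr5, Ly6d and Ms4a1. Windows of 250 bases before the transcription start were searched on both strands for 6 short motifs of factors known in lymphocytes. GAGGAAGT, the core bound by PU.1 and Spi-B, was found in 3 of 25 members (12%), which were Cd72, Cd37 and Cd5, and in 2.79% of 27025 genes. CTTTGA, the core bound by the factors that Tcf7 and Lef1 encode, was found in 4 of 25 members (16%), which were Cd3d, Lef1, Zap70 and Gpr18, and in 15.8% of all genes. The 100 bases before the start are shown for the 3 genes with the first motif and for Cd3d, which holds the second motif on each strand. The strand is that of the gene, and capitals mark the motif as read on either strand.
Cd72, B lymphocyte, chr4:43454627-43454726, minus strand: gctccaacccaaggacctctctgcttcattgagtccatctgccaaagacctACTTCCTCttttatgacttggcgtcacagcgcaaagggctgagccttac
Cd37, B lymphocyte, chr7:45238840-45238939, minus strand: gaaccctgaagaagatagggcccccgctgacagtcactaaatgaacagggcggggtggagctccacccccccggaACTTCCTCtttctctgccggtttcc
Cd5, T lymphocyte, chr19:10738975-10739074, minus strand: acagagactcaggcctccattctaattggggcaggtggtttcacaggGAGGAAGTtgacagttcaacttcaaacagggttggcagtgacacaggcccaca
Cd3d, T lymphocyte, chr9:44981686-44981785, plus strand: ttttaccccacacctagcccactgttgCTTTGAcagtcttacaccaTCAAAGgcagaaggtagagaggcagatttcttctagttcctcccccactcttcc

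The other motifs were counted in the same way. CCCNNGGG, read by EBF1, was in 5 of 25 members (20%) and in 13.4% of all genes. TGTGGT, read by RUNX factors, was in 4 of 25 members (16%) and in 15.9% of all genes. GGGNNTTCC, read by NF-kB, was in 2 of 25 members (8%), Ccl19 and Cd3g, and in 5.61% of all genes. The octamer ATTTGCAT, read by POU factors with the coactivator that Pou2af1 encodes, was in 0 of 25 members and in 1.81% of all genes. A match is a description of the letters and not of binding.

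The T cell receptor is read out by the CD3 chains and by the zeta chain that Cd247 encodes. Cd3e had 84.0 and 81.2 RPKM in the Y1cKO and 89.9 and 56.5 RPKM in the Y1CTL Ribo-seq libraries. In RNA-seq, Cd3e had 0.728 and 0.4996 RPKM in Y1cKO and 0 and 26.5 RPKM in Y1CTL. The 3 Ribo-seq values of Cd3e at 81.2 RPKM or more came from both genotypes, and 1 RNA-seq library was far above the other 3. Cd3g reached 117 and 128 RPKM in Y1cKO and 111 and 96.2 RPKM in Y1CTL by Ribo-seq, and Cd3d had 73.5 and 76.1 RPKM in Y1cKO and 76.3 and 51.5 RPKM in Y1CTL.

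Cd247 stood apart from the CD3 chains in RNA-seq. Its Ribo-seq level was 22.8 and 27.0 RPKM in Y1cKO and 19.2 and 17.4 RPKM in Y1CTL, so that the groups did not overlap, as was also the case for Cd3g. By RNA-seq it had 0.222 and 0.391 RPKM in Y1cKO and 0.256 and 0.886 RPKM in Y1CTL. Y1CTL replicate 2 was thus again the highest library, but with 13 reads, a ratio to the other 3 libraries pooled of 2.85 (95% interval 1.36 to 5.62), against 42.3 for Cd3d (20.8 to 97.2), 50.4 for Cd3e (33.1 to 79.9) and 121 for Cd3g (45.5 to 458). These intervals, computed from the reads that the RPKM values stand for, cover counting error only.

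Lck and Zap70 are the kinases that act just after the receptor. Lck had 28.2 and 26.6 RPKM in Y1cKO and 24.7 and 16.1 RPKM in Y1CTL by Ribo-seq, and 0.513 and 0.499 RPKM in Y1cKO and 0.853 and 16.8 RPKM in Y1CTL by RNA-seq. Both Y1cKO libraries lay above both Y1CTL libraries in Ribo-seq and below both in RNA-seq, where Y1CTL replicate 1 held 7 reads. Zap70 had 9.92 and 10.7 RPKM in Y1cKO and 10.7 and 8.13 RPKM in Y1CTL by Ribo-seq, where the groups overlapped.

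Among the receptors that tune the T cell response, Cd2, an adhesion receptor, had 48.5 and 52.1 RPKM in Y1cKO and 42.1 and 35.9 RPKM in Y1CTL by Ribo-seq. Cd5, a scavenger-type receptor that dampens the signal, had 18.7 and 19.9 RPKM in Y1cKO and 15.7 and 13.8 RPKM in Y1CTL. For both genes the Y1cKO values were the higher ones without overlap. In RNA-seq Cd5 had 0 and 0.0883 RPKM in Y1cKO and 0 and 9.75 RPKM in Y1CTL, and Cd2 had 0.852 and 1.16 RPKM in Y1cKO and 0 and 16.3 RPKM in Y1CTL. A count of 0 allows up to 3 reads, which for Y1CTL replicate 1 is 0.367 RPKM of Cd5 and 0.657 RPKM of Cd2. The costimulatory receptor Cd28 spread most among the T lymphocyte genes in Ribo-seq, with 12.5 and 13.9 RPKM in Y1cKO and 14.8 and 5.40 RPKM in Y1CTL.

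Naive and central memory T cells are marked by Tcf7 and Lef1, transcription factors of the Wnt-responsive family, by Ccr7, and by Il7r, the receptor for the survival cytokine interleukin 7. Tcf7 had 35.9 and 31.4 RPKM in Y1cKO and 29.4 and 22.6 RPKM in Y1CTL by Ribo-seq. In Y1CTL RNA-seq replicate 2 it had 35.3 RPKM, the highest T lymphocyte value of that library, against 0.318 and 0.207 RPKM in Y1cKO and 0 in Y1CTL replicate 1. Pooled over those 3 libraries Tcf7 had 15 reads, and the ratio was 158 (95% interval 94.6 to 285). Ccr7 had 39.7 and 36.2 RPKM in Y1cKO and 35.5 and 26.9 RPKM in Y1CTL by Ribo-seq, and 0.0828 and 0 RPKM in Y1cKO and 0 and 12.4 RPKM in Y1CTL by RNA-seq. Only 2 reads of Ccr7 were found outside Y1CTL RNA-seq replicate 2, a ratio of 401 with a wide interval (109 to 3345). Il7r overlapped between genotypes in Ribo-seq, at 13.7 and 15.8 RPKM in Y1cKO and 14.7 and 11.9 RPKM in Y1CTL.

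B lymphocyte genes included the signaling chains of the B cell receptor. Cd79a was the B lymphocyte gene with the highest Ribo-seq level, 277 and 293 RPKM in Y1cKO and 237 and 216 RPKM in Y1CTL. By RNA-seq Cd79a had 0.506 and 0.418 RPKM in Y1cKO and 0 and 63.9 RPKM in Y1CTL. The Ribo-seq groups did not overlap, and the RNA-seq values again separated 1 Y1CTL library from the other. Cd79b, its partner, had 115 and 129 RPKM in Y1cKO and 112 and 109 RPKM in Y1CTL by Ribo-seq.

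Of the B cell surface receptors, Ms4a1, which encodes CD20, had 63.1 and 68.5 RPKM in Y1cKO and 62.0 and 57.5 RPKM in Y1CTL by Ribo-seq. Fcer2a, the low-affinity IgE receptor CD23 of follicular B cells, had 75.7 and 91.1 RPKM in Y1cKO and 67.4 and 70.1 RPKM in Y1CTL. Cr2, the complement receptor CD21, had 10.3 and 12.2 RPKM in Y1cKO and 10.7 and 9.32 RPKM in Y1CTL. Ms4a1 and Fcer2a did not overlap between genotypes and Cr2 did. The RNA-seq contrast was widest for Fcer2a and Cr2. Fcer2a had 0.0731 and 0.0543 RPKM in Y1cKO and 0 and 28.3 RPKM in Y1CTL, a ratio of Y1CTL replicate 2 to the rest of 517 (95% interval 200.01 to 1909.96, from 4 reads in the rest). Cr2 had 0 and 0 RPKM in Y1cKO and 0.179 and 10.3 RPKM in Y1CTL, a ratio of 475 (160.4 to 2322, from 3 reads). Cd22, an inhibitory receptor for sialic acid, was the 1 member of 34 whose Ribo-seq mean was not higher in Y1cKO, with 28.6 and 32.3 RPKM in Y1cKO and 31.8 and 29.1 RPKM in Y1CTL.

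Pax5 is the transcription factor that holds B cell identity. It had 12.4 and 11.98 RPKM in Y1cKO and 8.41 and 10.6 RPKM in Y1CTL by Ribo-seq, and 0.0409 and 0.0913 RPKM in Y1cKO and 0 and 14.1 RPKM in Y1CTL by RNA-seq. Its Ribo-seq values did not overlap, and its lowest value was that of Y1CTL replicate 1, unlike most members. With 560 reads in Y1CTL RNA-seq replicate 2, the most of any member, Pax5 had a ratio to the other libraries of 229.9 (140.3 to 405). The factors Spib and Pou2af1 had 19.0 to 30.6 RPKM over the 4 Ribo-seq libraries and overlapped between genotypes.

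Ly6d, a GPI-anchored surface protein of B lineage cells that is also made by keratinocytes, was the B lymphocyte gene with the smallest RNA-seq p. It had 238 and 219.6 RPKM in Y1cKO and 199 and 138 RPKM in Y1CTL by Ribo-seq, and 0.550 and 0.409 RPKM in Y1cKO and 2.04 and 20.6 RPKM in Y1CTL by RNA-seq. Both Y1CTL RNA-seq libraries were above both Y1cKO libraries, but replicate 1 with 6 reads. Cd37, a tetraspanin of mature B cells that other leukocytes also make, had the highest single RNA-seq value of any member outside Y1CTL replicate 2, with 3.68 and 1.73 RPKM in Y1cKO and 2.39 RPKM in Y1CTL replicate 1, against 32.3 RPKM in Y1CTL replicate 2.

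Kcna3 and Gpr18 are used by both lineages. Kcna3, the voltage-gated potassium channel Kv1.3, had the lowest Ribo-seq level of all members, 0.996 and 1.68 RPKM in Y1cKO and 1.06 and 0.686 RPKM in Y1CTL. By RNA-seq it had 0.172 and 0 RPKM in Y1cKO and 1.06 and 6.25 RPKM in Y1CTL. It was the member with the smallest RNA-seq p, from 8 and 59 reads in Y1CTL. Gpr18, a G protein-coupled receptor, had 11.3 and 11.03 RPKM in Y1cKO and 10.4 and 8.89 RPKM in Y1CTL by Ribo-seq, and 0.328 and 0.0406 RPKM in Y1cKO and 0.843 and 8.61 RPKM in Y1CTL by RNA-seq. In both genes the RNA-seq groups did not overlap, with 8 reads of Kcna3 and 5 reads of Gpr18 in Y1CTL replicate 1.

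The stromal chemokines were among the highest members in Ribo-seq. Ccl21a had 342 and 285 RPKM in Y1cKO and 262 and 215 RPKM in Y1CTL, and Ccl19 had 179 and 215 RPKM in Y1cKO and 187 and 146 RPKM in Y1CTL. Ccl21a has near-identical copies in the mouse genome, with which it may share reads. By RNA-seq Ccl21a had 0.282 and 0.210 RPKM in Y1cKO and 0 and 86.1 RPKM in Y1CTL, and Ccl19 had 0.212 and 0.630 RPKM in Y1cKO and 0 and 46.9 RPKM in Y1CTL. These are the first and the third level of Y1CTL replicate 2 among the members. Cxcl13, the chemokine of the follicles, had 134 and 142 RPKM in Y1cKO and 135 and 97.6 RPKM in Y1CTL by Ribo-seq. Its RNA-seq values set it apart, since both Y1cKO libraries held reads in number, 34 and 56, with 2.42 and 2.96 RPKM, while Y1CTL had 0 and 16.8 RPKM. Its ratio of Y1CTL replicate 2 to the other libraries was 7.01 (95% interval 5.20 to 9.45), the second lowest of the members after that of Cd247.

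**Figure D2:**
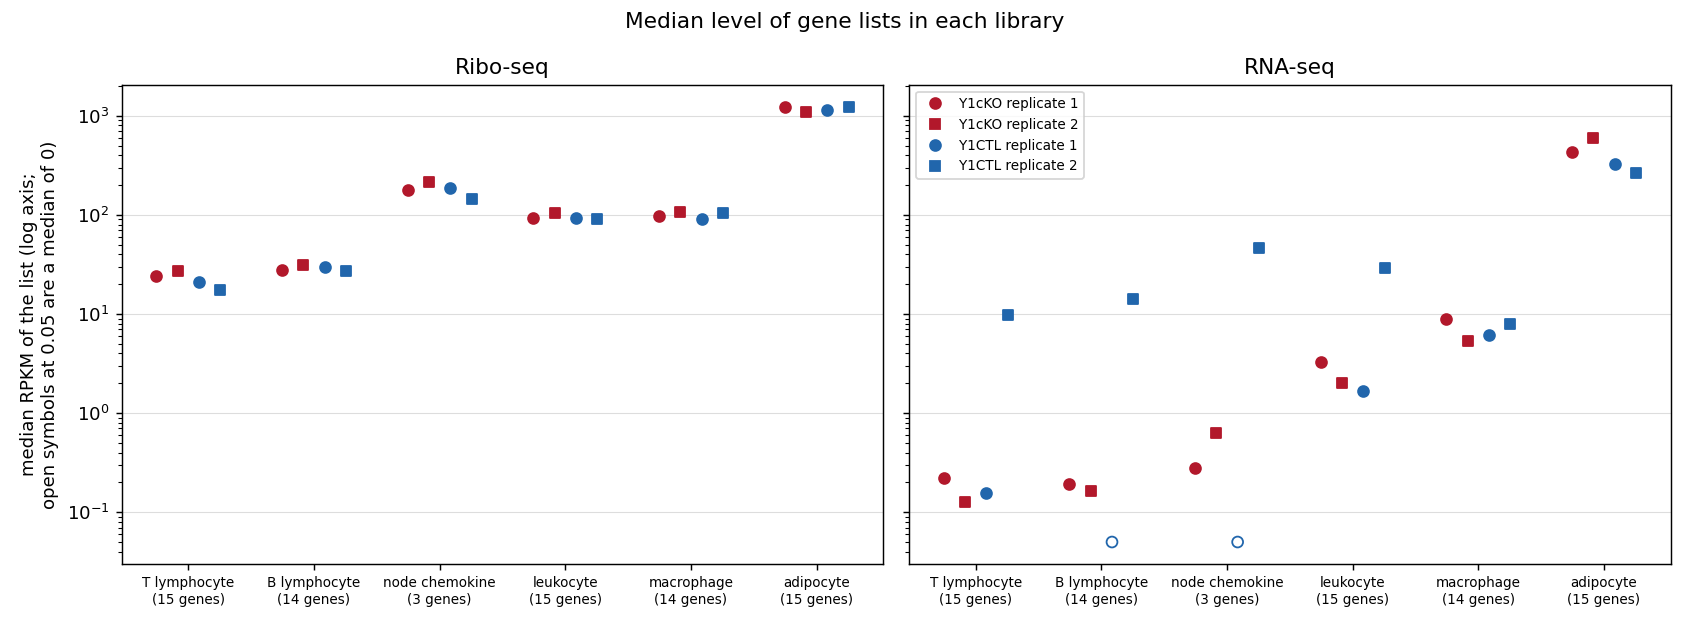
Median RPKM of 6 gene lists in each library on a log axis, Ribo-seq on the left and RNA-seq on the right, 1 point per library and an open symbol for a median of 0. In RNA-seq the T, B, node and leukocyte medians of Y1CTL replicate 2 lie above those of the other 3 libraries, while macrophage genes lie between 5.36 and 8.89 RPKM in all 4.

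Lymphoid reads can be summed by library. The 34 genes took 0.156% and 0.162% of the reads of the Y1cKO Ribo-seq libraries and 0.144% and 0.122% of those of the Y1CTL Ribo-seq libraries. In RNA-seq they took 0.00225% and 0.00187% in Y1cKO and 0.00167% and 0.118% in Y1CTL, that is 275 and 308 reads in Y1cKO and 66 and 5844 reads in Y1CTL. The share in Y1CTL RNA-seq replicate 2 was therefore close to those of the Ribo-seq libraries, and the other 3 shares were lower by more than an order of magnitude. No read was found for 2 and 4 of 34 members in the Y1cKO RNA-seq libraries and for 19 and 0 of 34 in the Y1CTL libraries, of which replicate 1 was the shallowest library of all.

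The proportion of B to T lymphocyte genes was compared in the libraries where both were well covered. The summed RPKM of the 14 B lymphocyte genes was 1.82 and 1.87 times that of the 15 T lymphocyte genes in Y1cKO and 1.75 and 2.04 times in Y1CTL by Ribo-seq. In Y1CTL RNA-seq replicate 2 this ratio was 1.52. Counted in reads, it was 1.71 and 1.83 in Y1cKO and 1.74 and 2.07 in Y1CTL by Ribo-seq, and 1.73 (95% interval 1.63 to 1.83) in Y1CTL RNA-seq replicate 2. The highest of these, 2.07 (1.97 to 2.17) in Y1CTL Ribo-seq replicate 2, went with the lowest T lymphocyte median of the Ribo-seq libraries, 17.4 RPKM. In the other RNA-seq libraries the B to T ratio rested on 53 to 240 reads and had wide intervals, 0.928 to 1.60 and 0.796 to 1.34 in Y1cKO and 0.583 to 1.85 in Y1CTL replicate 1.

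Over the 34 genes, log2 levels correlated at r = 0.987 to 0.996 between pairs of Ribo-seq libraries (rho 0.980 to 0.992). Between a Ribo-seq library and Y1CTL RNA-seq replicate 2 the correlation was r = 0.700 to 0.715 (rho 0.763 to 0.792). These are correlations across genes, which share each library's depth and are not independent replicates. Genes off the common trend were Cd247, at 21.6 RPKM as the mean of the Ribo-seq libraries and 0.886 RPKM in that RNA-seq library, Cd3d, at 69.4 RPKM and 7.23 RPKM, and Kcna3, at 1.11 RPKM and 6.25 RPKM.

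**Figure D3:**
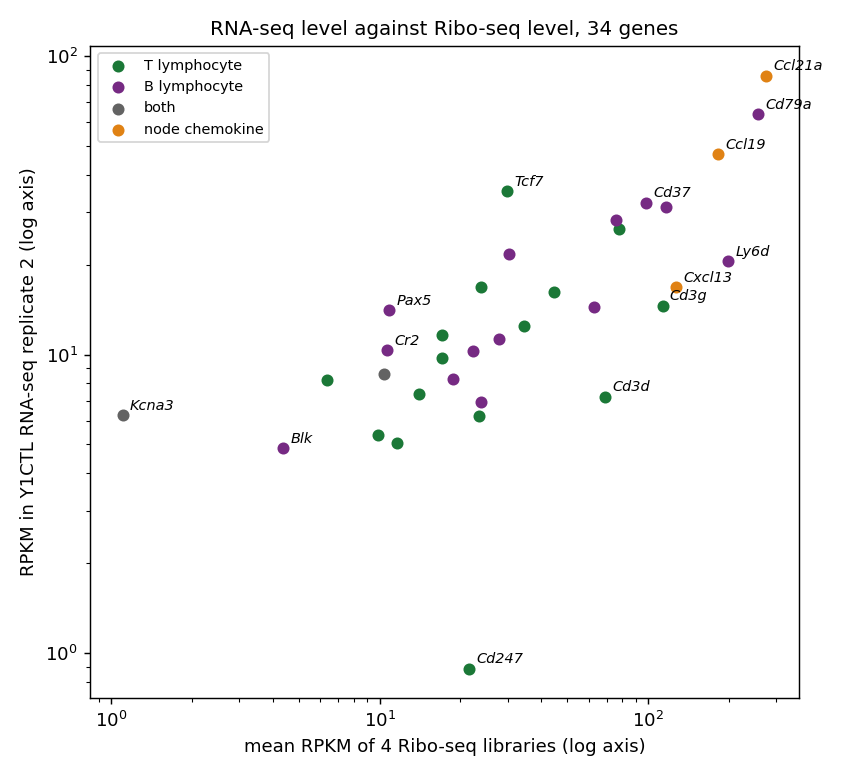
RPKM of each of the 34 genes in Y1CTL RNA-seq replicate 2 (vertical) against the mean RPKM of the 4 Ribo-seq libraries (horizontal), both on log axes, coloured by group. Levels rise together, with Cd247 lowest on the vertical axis at 0.886 RPKM and Kcna3 lowest on the horizontal axis at 1.11 RPKM.

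How far Y1CTL RNA-seq replicate 2 stood apart was counted over all genes. Of 10715 genes with at least 20 reads in it, 159 (1.48%) were at least 10 times as high there as in each other RNA-seq library. Of the 33 members with enough reads, 30 were among these, and Cd37, Cxcl13 and Kcna3 were not. Cd247, with 13 reads in that library, could not be counted. The same count was 34 genes for Y1cKO replicate 1, 0 for Y1cKO replicate 2 and 1 for Y1CTL replicate 1, none of them members. Outside the members, and among genes with at least 20 reads there, it took 14 of 19 further genes of T cell receptor signaling and 7 of 22 of B cell signaling. Of homing and node structure it took 5 of 12, and of natural killer, innate and regulatory lymphocytes 4 of 8. Pan-leukocyte genes gave 4 of 15 and dendritic cell genes 1 of 9. Genes with fewer than 20 reads in that library could not be counted. It took 0 of 12 macrophage, 15 adipocyte, 10 beige, 12 endothelial and 12 fibroblast genes with enough reads. It also took 0 of 5 erythroid, 6 germinal center and 7 proliferation genes, and only 1 of 14 muscle genes had enough reads, so that little can be read from these lists.

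Markers of the other cells of the tissue moved with the members in part. The median of 15 pan-leukocyte genes reached 29.3 RPKM in Y1CTL RNA-seq replicate 2, against 1.67 to 3.29 RPKM in the rest of RNA-seq, and 15 of 15 were highest in that library. The summed level of 14 macrophage genes was 216 RPKM there and 119 to 189.7 RPKM in the others, and 5 of 14 were highest in that library. The adipocyte sum was lowest in it, 10685 RPKM against 16448 to 19991 RPKM. The part of tissue composition in the differences below was not tested.

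Between genotypes, 0 of 12602 genes passed an adjusted p of 0.05 in Ribo-seq (0%) by limma on log2(RPKM + 0.5), with 347 genes at an unadjusted p under 0.05. Run on the reads, voom likewise called 0. Of the 34 members, 33 had a higher Ribo-seq mean in Y1cKO, where 51.5% of all genes tested did, and 21 had both Y1cKO libraries above both Y1CTL libraries, where 15.4% of all genes did. Both Y1cKO libraries were below in 0 of 34 members and in 14.1% of all genes. The 21 comprised 10 of 15 T lymphocyte genes, 9 of 14 B lymphocyte genes, 1 of the 2 shared genes (Gpr18) and 1 of 3 chemokines (Ccl21a). The median log2 difference was 0.30 over the T lymphocyte genes, 0.14 over the B lymphocyte genes and 0.27 over the chemokines, against 0.0071 over all genes tested. These medians describe the lists, and members that come from the same cells are not independent of each other.

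The single differences were small and none passed. Unadjusted p under 0.05 from limma were met by Cd247, with a log2 difference of 0.43 (standard error 0.16), Cd2, with 0.37 (0.15), and Cd5, with 0.37 (0.15). The adjusted p from limma was 1.00 for each of the 34. These 3 are T lymphocyte genes, and 1.62% of all genes tested had such a p with a higher value in Y1cKO. The log2 differences of the other members ran up to 0.53 (standard error 0.41) for Cd28, with 0.46 (0.20) for Ly6d, 0.45 (0.22) for Lck, 0.40 (0.18) for Ccl21a, 0.38 (0.18) for Tcf7, 0.35 (0.18) for Pax5 and 0.33 (0.14) for Cd79a. Smaller ones were 0.29 (0.17) for Ccr7, 0.27 (0.15) for Fcer2a, 0.21 (0.23) for Cd3e, 0.16 (0.17) for Cr2, 0.15 (0.18) for Il7r and 0.14 (0.14) for Ms4a1. Many of these values moved by more than 1.5 times with 1 library left out. Without Y1CTL replicate 2 the difference was 0.20 for Ly6d, 0.14 for Lck, 0.25 for Ccl21a, 0.19 for Tcf7, 0.095 for Ccr7, 0.063 for Cr2, 0.0019 for Il7r and 0.084 for Ms4a1. Without Y1CTL replicate 1 it was 0.73 for Ly6d, 0.75 for Lck, 0.48 for Ccr7 and 0.29 for Il7r, and 0.18 for Pax5. Without Y1cKO replicate 2 it was 0.14 for Fcer2a, 0.038 for Cr2 and 0.044 for Il7r. Cd28 was not followed in this way, and its Ribo-seq level in Y1CTL replicate 2, 5.40 RPKM, was far below its other 3 values.

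**Figure D4:**
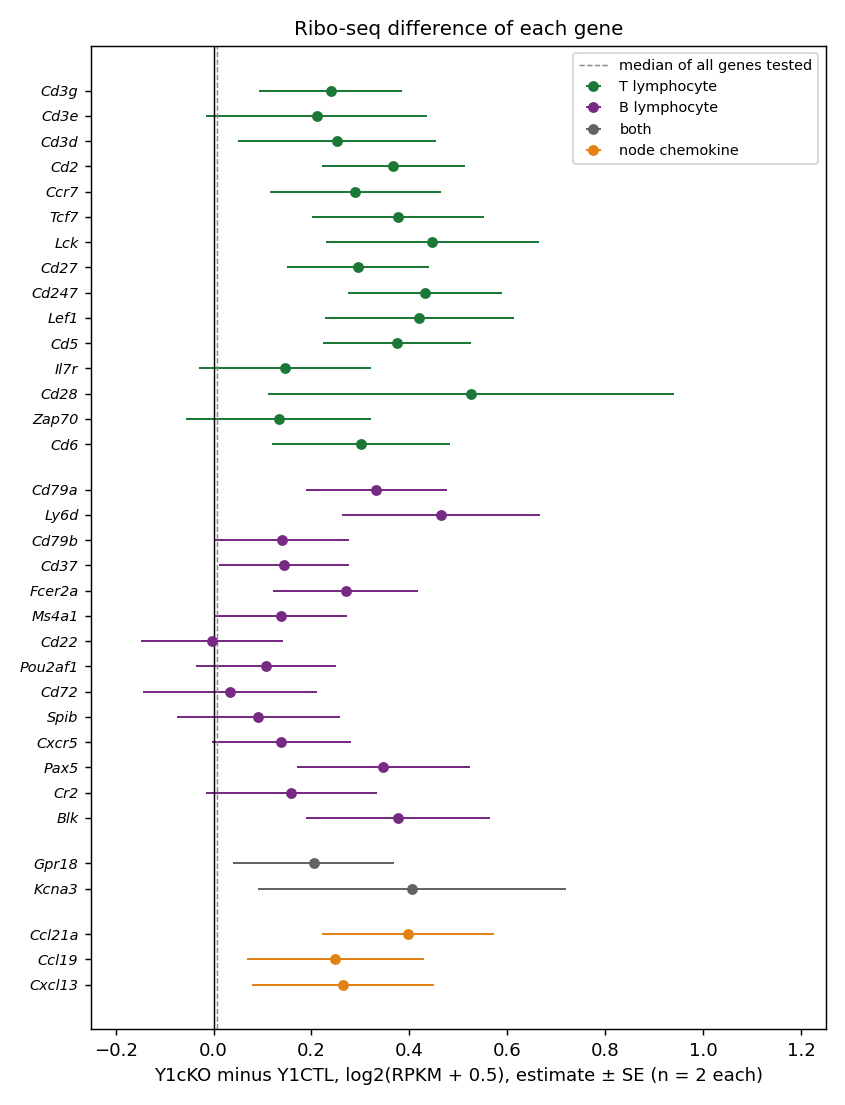
Ribo-seq difference of each gene, Y1cKO minus Y1CTL, on the log2(RPKM + 0.5) scale, with the standard error from limma (2 libraries per genotype) and dashed the median of all genes tested. Estimates lie above 0 for 33 of 34 genes, between -0.0032 for Cd22 and 0.53 for Cd28, and the T lymphocyte genes have a median of 0.30.

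One Y1CTL library weighed on this direction. The lowest of the 4 Ribo-seq values was that of Y1CTL replicate 2 in 29 of 34 members, and the highest was in Y1cKO in 29 of 34. For these 2 counts the shares of all genes were not computed. Without Y1CTL replicate 2 the T lymphocyte median was 0.14 and the B lymphocyte median 0.092, and without Y1CTL replicate 1 they were 0.48 and 0.19. Both Y1cKO libraries lay above Y1CTL replicate 1 alone in 21 of 34 members (35.7% of all genes) and above Y1CTL replicate 2 alone in 32 of 34 (35.0% of all genes). Both lay below Y1CTL replicate 1 in 5 of 34 members (31.6% of all genes), among them Cd3e, whose log2 difference was -0.12 without Y1CTL replicate 2. The median Ribo-seq difference was 0.10 over the pan-leukocyte genes (13 of 15 above 0), -0.025 over macrophage genes (6 of 14) and -0.0060 over dendritic cell genes (6 of 12).

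Lists of other cells also moved in Ribo-seq, and some by more than the members. The median difference was 0.35 over the beige markers (8 of 10 above 0) and -0.60 over the erythroid genes (0 of 5). Beige markers took 0.680% and 0.552% of the reads in Y1cKO and 0.806% and 0.255% in Y1CTL, and adipocyte markers took 4.82% and 4.98% in Y1cKO and 4.84% and 6.34% in Y1CTL. Y1CTL Ribo-seq replicate 2, the library with the lowest value of most members, thus had the lowest beige and the highest adipocyte share. The part of these shares in the differences of the members was not tested.

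In RNA-seq, 0 of 12435 genes passed (0%) by limma, with 1468 genes at an unadjusted p under 0.05. Voom called 0 as well. The mean RPKM was lower in Y1cKO for 34 of 34 members, and Y1CTL replicate 2 was the highest library in each, so that the lower means rest largely on that library. The shares of all genes with these patterns were not counted. Both Y1cKO libraries lay below Y1CTL replicate 2 alone in 34 of 34 members and in 27.8% of all genes. In 10 of 34 members the Y1cKO pair was below the Y1CTL pair without overlap, where 10.7% of all genes did so, and in 0 of 34 it was above, where 36.9% of all genes did. Y1CTL replicate 1 held only 2 to 8 reads of each of those 10, so that the separation rests on few reads. The median log2 difference was -1.82 over the T lymphocyte and -2.17 over the B lymphocyte genes, against 0.17 over all genes tested. Of the 34, 33 reached the least mean of 0.5 RPKM for a test and only 5 would have done so without Y1CTL replicate 2, so that counts over the tested members carry no weight. Unadjusted p under 0.05 were met by Kcna3 (log2 difference -2.49, standard error 0.75, adjusted p = 0.402 from limma), Ly6d (-2.90, 0.94, adjusted p = 0.402 from limma) and Gpr18 (-2.39, 0.92, adjusted p = 0.413 from limma). For Ccl21a the difference was -3.14 (standard error 2.21), for Cd79a -2.56 (2.09) and for Tcf7 -2.48 (1.85), so that the standard errors were near the size of the differences. Cxcl13 alone had a difference above 0 on this scale, 0.11 (1.53), though its mean RPKM was lower in Y1cKO, and the sign turned to -0.20 with a pseudocount of 1 and to -0.050 with libraries scaled to the same median.

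The RNA-seq contrast rested on which Y1CTL library was used. Leaving out Y1CTL replicate 1 makes replicate 2 the lone Y1CTL library. The 18 members followed through the alternatives then had log2 differences of -6.86 to -2.44. Only 5 of 34 members would have reached the least mean for a test without replicate 2, so that these differences restate its level. Without Y1CTL replicate 2 the same 18 ran between -1.43 for Kcna3 and 2.67 for Cxcl13, with medians of 0.084 over the T lymphocyte and 0.21 over the B lymphocyte genes. Both Y1cKO libraries then lay below Y1CTL replicate 1 in 10 of 34 members (23.7% of all genes) and above it in 16 of 34 (55.2% of all genes).

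Translational efficiency (TE), the Ribo-seq over the RNA-seq level, carried the RNA-seq pattern with the sign turned. No gene of 11792 passed the test of the genotype difference in TE (0%) by limma, with 1021 genes at an unadjusted p under 0.05. By voom the number was again 0. The median log2 TE difference was 1.99 over the T lymphocyte, 2.24 over the B lymphocyte and 2.69 over the chemokine genes, against -0.17 over all genes tested. It was 3.37 (standard error 1.15) for Ly6d, 2.89 (0.90) for Kcna3 and 2.59 (1.07) for Gpr18, each with an adjusted p = 0.563 from limma. Kcna3 and Gpr18 reached the least RNA-seq mean for this test only through Y1CTL replicate 2. Without that library their RNA-seq means were 0.412 and 0.404 RPKM, so that their tests carry no weight of their own. For the Y1CTL libraries numbered 2 the log2 ratio of Ribo-seq to RNA-seq had a median of 0.65 over the T lymphocyte genes and 1.23 over the B lymphocyte genes, near the 0.96 of all genes tested. For the other 3 pairs of libraries it was 4.99 to 5.12 over the T lymphocyte and 5.18 to 5.76 over the B lymphocyte genes, against 0.76 to 1.05 over all genes. In the RNA-seq libraries of those pairs the T and B lymphocyte medians were at most 0.219 and 0.193 RPKM. These lie below the 0.5 RPKM added before the log, so that the ratios of the members there are largely set by that floor and do not measure TE. Without Y1CTL replicate 2 in both assays the median TE difference was 0.16 over the T lymphocyte and -0.069 over the B lymphocyte genes. Matching the assays by number follows the labels, and the data did not show the pairing that the labels give. Over 11792 genes the deviations of same-numbered Ribo-seq and RNA-seq libraries from their group means correlated at -0.24 in Y1cKO and -0.14 in Y1CTL, so that the ratios per number rest on the labels alone. With 2 libraries per group, exchanging the numbers of either assay turns the sign of such a correlation. In Y1cKO RNA-seq the column names exchange the replicate numbers of the labels. Whether the numbers are swapped was not tested. The test of the TE difference uses no pairing.

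Genes outside the list with the most similar profile over the 8 libraries were found by the correlation of log2(RPKM + 0.5) with the mean profile of the members, among genes with a Ribo-seq mean of at least 5 RPKM. The 10 highest, all at r = 0.997 to 0.999 as a description, included Fcrla, Themis, P2ry10, Grap2, Glycam1, Fcmr, Ccr6, Dsc3 and Ltb. Glycam1, a mucin of high endothelial venules, had 128 and 239 RPKM in Y1cKO and 211 and 125 RPKM in Y1CTL by Ribo-seq, and 0 and 0 RPKM in Y1cKO and 0 and 44.9 RPKM in Y1CTL by RNA-seq. Within the list, the lowest correlations with the mean profile were those of Kcna3 (0.528), Cd247 (0.911) and Cxcl13 (0.957).

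Of further genes of T cell signaling, 17 of 24 were higher in Y1cKO by Ribo-seq and 7 lower, with 0 called (median log2 difference 0.066), and of B cell signaling genes 16 of 23 were higher and 7 lower, with 0 called (median 0.14). Cd8a, the coreceptor of cytotoxic T cells, had 57.6 and 70.0 RPKM in Y1cKO and 59.5 and 60.7 RPKM in Y1CTL by Ribo-seq, and Cd4, that of helper T cells, had 55.8 and 53.6 RPKM in Y1cKO and 57.8 and 55.8 RPKM in Y1CTL. Cd8a overlapped between genotypes, and for Cd4 the higher Y1cKO and the lower Y1CTL value were equal to 3 digits. By RNA-seq Cd8a had 0.236 and 0.272 RPKM in Y1cKO and 0.162 and 13.8 RPKM in Y1CTL, and Cd4 had 0.290 and 0.431 RPKM in Y1cKO and 0.406 and 12.6 RPKM in Y1CTL. Cd74, the invariant chain of antigen-presenting cells, had 124 and 92.7 RPKM in Y1cKO and 109.7 and 467 RPKM in Y1CTL by RNA-seq, a smaller gap between Y1CTL replicate 2 and the rest than that of Cd4 or Cd8a. Genes for immunoglobulin and T cell receptor constant regions were not analysed here.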

How the data were processed

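RNA-seq of polyadenylated RNA and Ribo-seq of iWAT gave 8 libraries. Reads were aligned by the authors to mm8 with HISAT2 2.2.1, and the deposited values are RPKM, in a table for each library. DESeq2 is also named in the submitters' processing notes, with no role. For the counter, the annotation and the strandedness nothing is given in the sources used here. Each value (100%) was a whole number of reads times the worth of 1 read, to 0.01 read, and reads were recovered from this. Genes without a Ribo-seq entry were set to 0. In the RNA-seq tables of Y1cKO the column names exchange the replicate numbers of the labels, and the labels were followed.

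Log2(RPKM + 0.5) was tested by limma with trend (version 3.58.1, R 4.3.3) where the mean of the assay reached 0.5 RPKM, and TE as the interaction of assay and genotype. P-values were adjusted over all genes tested by Benjamini-Hochberg. An exact test of 2 against 2 libraries cannot go below p = 0.333. Chi-square over degrees of freedom was 12.3 to 36.2 between replicates over genes with at least 10 reads, far above sampling noise. Members and lists were chosen with earlier results of these data known. Statistics are printed for 16 members chosen by hand, for those with an unadjusted p under 0.05, for the 10 most similar genes (1 of which is not reported here), and for up to 3 genes of each of 15 other lists, those with the highest Ribo-seq mean; other members named were chosen after their values were seen. Alternatives were the pseudocount, filter, scaling, trend, a replicate block, voom, a fit over all libraries and each library left out with the genes tested kept. Counts on 1 side without a Y1CTL library and the crossed block for TE were added after seeing the data. Scripts were tested on simulated data and used Python 3.11.15, pandas 2.3.3 and matplotlib 3.10.9.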

Additional observations from a re-analysis of the deposited data

How the results depend on the processing

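With 2 libraries per group, leaving out 1 leaves a lone library that is assumed to vary like the others. Apart from libraries left out, every alternative called 0 genes in each comparison. With each library left out, genes called ran from 0 to 49 in Ribo-seq, where 49 were called without Y1CTL replicate 1 and 19 without Y1CTL replicate 2, from 0 to 682 in RNA-seq and from 0 to 958 for TE, both highest without Y1CTL replicate 1. Over libraries left out, the Ribo-seq difference of Cd3e ran from -0.12 to 0.54. RNA-seq differences ran from -4.60 to 1.15 for Cd3e, -5.56 to 0.61 for Tcf7, -4.58 to 0.11 for Ccr7, -6.07 to 0.94 for Cd79a, -4.58 to 0.32 for Ms4a1, -5.68 to 0.17 for Fcer2a, -4.69 to 0.18 for Pax5, -5.72 to 0.84 for Ccl19, -6.86 to 0.58 for Ccl21a, -2.44 to 2.67 for Cxcl13, -3.48 to 1.58 for Cd2 and -4.24 to 0.12 for Cd5, with the upper value without Y1CTL replicate 2. TE differences ran from -1.27 to 5.15 for Cd3e, -0.41 to 6.12 for Tcf7, -0.016 to 5.07 for Ccr7, -0.68 to 6.47 for Cd79a, -0.23 to 4.77 for Ms4a1, -0.77 to 6.15 for Ccl19, -0.32 to 7.40 for Ccl21a, -2.64 to 2.94 for Cxcl13 and -1.33 to 3.96 for Cd2, with the lower value without Y1CTL replicate 2. Cxcl13 also turned in RNA-seq to -0.20 with a pseudocount of 1 and to -0.050 with scaling to the same median, and for TE to -0.83 with a pseudocount of 0.1 and -0.46 with voom; the cause was not tested. With a replicate block 0 genes were called in each comparison, and the T lymphocyte median in Ribo-seq was 0.30. Deviations of same-numbered libraries of both genotypes correlated at 0.033 in Ribo-seq and -0.021 in RNA-seq, so that the number does not pair them. With the numbers crossed between the assays within each genotype, an alternative added after seeing the data, the replicate block for TE likewise called 0 genes. Medians over the members kept their sign under the other alternatives. The depth of Y1CTL RNA-seq replicate 1 limits what can be said of the members there, since 3 reads there are 0.0947 RPKM of Pax5 and 1.02 RPKM of Ly6d.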

Other observations

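Immune genes outside the members followed them in part. Jchain, the joining chain of secreted antibody and a marker of plasma cells, had 408 and 479 RPKM in Y1cKO and 1239 and 190.2 RPKM in Y1CTL by Ribo-seq, and 0.764 and 1.57 RPKM in Y1cKO and 1.63 and 4.19 RPKM in Y1CTL by RNA-seq. Its highest RNA-seq library was thus Y1CTL replicate 2, as for the members, but its highest Ribo-seq library was Y1CTL replicate 1, which was the highest for 5 of 34 members. Ccl22, a chemokine of activated dendritic cells, was high in the same RNA-seq library as the members, with 0.480 and 0.220 RPKM in Y1cKO and 0.684 and 15.6 RPKM in Y1CTL. Clec10a, a lectin of dendritic cells and macrophages, had 5.72 and 5.46 RPKM in Y1cKO and 4.88 and 1.90 RPKM in Y1CTL by RNA-seq, so that this library was the lowest. Ccl5, a chemokine of activated T and natural killer cells, had 2.77 and 2.40 RPKM in Y1cKO and 0 and 39.0 RPKM in Y1CTL by RNA-seq, again with Y1CTL replicate 2 the highest.

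The genes of dividing cells were not highest in Y1CTL RNA-seq replicate 2 as a list. Their median over 15 genes was 1.37 RPKM there and 2.41 RPKM in Y1CTL replicate 1, against 1.12 and 0.581 RPKM in Y1cKO. Cdk1, the kinase of mitotic entry, had 0.861 and 0.237 RPKM in Y1cKO and 1.39 and 0.230 RPKM in Y1CTL by RNA-seq. Its value in Y1CTL replicate 2 rested on 5 reads, and 3 of 15 proliferation genes were highest in that library. Bcl6, a repressor of germinal center B cells that fat cells also make, had 18.9 and 29.8 RPKM in Y1cKO and 40.6 and 18.5 RPKM in Y1CTL by RNA-seq. Ucp1, the uncoupling protein of beige fat, had 48.1 and 544 RPKM in Y1cKO and 609 and 1441 RPKM in Y1CTL by RNA-seq, so that the library with lymphoid transcripts also had the highest Ucp1 level. By Ribo-seq Ucp1 had 3164 and 2481 RPKM in Y1cKO and 3586 and 955 RPKM in Y1CTL, and the lowest value was that of the Y1CTL library with the same number.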
